A study of Mus musculus with 12 samples.

Results

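The genes described here are 39 mouse genes of glucose breakdown and of the response to low oxygen, measured in white adipocytes that received a let-7 microRNA mimic. They were found in the count table by matching its Ensembl gene identifiers to a list of symbols, and all 39 listed genes were present among 15754 genes. They fall into 17 glycolytic enzymes, 4 sugar and lactate transporters, 3 regulators of glycolysis, 3 genes of oxygen sensing, 3 mitochondrial proteins, 2 secreted proteins and 7 genes of matrix, chromatin and growth. The first 24 of these are counted as glycolysis genes and the other 15 as hypoxia genes. The question was whether they moved together across the let-7d, let-7e and control libraries.

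The cells were grown from the stromal vascular fraction of epididymal fat, which is what remains of the tissue without its mature fat cells, of wild-type male C57BL/6 mice on chow at 8 weeks of age. Differentiation into adipocytes used rosiglitazone (1 µM), insulin (850 nM), dexamethasone (1 µM) and IBMX (250 µM) in all groups, controls included. On day 4 the cultures were transfected with let-7d-5p mimic, let-7e-5p mimic or a negative control, and RNA was taken on day 7. Each of the 3 groups has 4 libraries, whereas the design text gives n = 6. Libraries are named by group and replicate number. Replicates 1 and 2 of every group carry 1 run of sample identifiers, called series 1 here, and replicates 3 and 4 carry another, called series 2. How the series differ is not in the labels, nor is whether replicates came from separate cultures or animals, and p-values here cover the spread among the sequenced libraries alone, possibly a technical one. Library totals ran from 15071299 counts (control 2) to 33396316 counts (let-7e 3). The 39 genes took 0.938 to 1.35% of a library's counts, and the lowest single count was 36, for Ankrd37.

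Glycolysis splits glucose into pyruvate in the cytosol, and lactate dehydrogenase can turn pyruvate into lactate, which leaves the cell through monocarboxylate transporters. Many of its genes are targets of hypoxia-inducible factor (HIF), a transcription factor whose alpha subunit is marked for destruction by oxygen-dependent prolyl hydroxylases and accumulates when oxygen is scarce. In adipocytes glycolysis supplies glycerol phosphate and acetyl groups for fat storage, and expanding fat tissue is known for low oxygen. Members of the let-7 microRNA family act within Argonaute proteins and repress messages that base-pair with the seed near the 5′ end of the microRNA.

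The mature sequences of the 2 microRNAs, from RefSeq (GRCm38.p6), are shown because the mimics carry them. The seed, bases 2 to 8, is in capitals.
let-7d-5p chr13:48536078-48536099 strand minus: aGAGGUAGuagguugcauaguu
let-7e-5p chr17:17830366-17830387 strand plus: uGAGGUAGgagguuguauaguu
Both are 22 bases long and share the seed. They differ at 3 bases, A1U, U9G and C16U, counted from 1 at the 5′ end with the let-7d base first. For each gene only its longest annotated 3′ UTR was searched. The 7 bases that pair with the seed occur there in 2 of the 39 genes, Aldoc and Slc2a3, against 10.5% of 13541 tested genes with a 3′ UTR. Each site is shown with the pairing bases in capitals.
Aldoc (chr11), from base 446 of a 1427-base 3′ UTR: acataccaaagtCTACCTCc
Slc2a3 (chr6), from base 1549 of a 2122-base 3′ UTR: ggttggaaggctCTACCTCa
The 3′ UTRs searched for the other members do not hold these 7 letters, which says nothing of their other annotated 3′ UTRs or of other kinds of site.

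The 11 measured adipocyte markers were present in every library. Summed, they lay in series 1 at 20876 to 21603 CPM (counts scaled to library size) with let-7d, 20445 to 21820.5 CPM with let-7e and 19909.9 to 21426 CPM in controls. In series 2 they lay lower, at 5338 to 6064 CPM with let-7d, 5658 to 6437 CPM with let-7e and 4789 to 6867 CPM in controls. The 13 macrophage markers summed in series 2 to 63.7 to 149 CPM with let-7d, 48.1 to 75.5 CPM with let-7e and 26.9 to 38.5 CPM in controls. There, 7 of the 13 rose with let-7d (3.29% of all genes) and none was called with let-7e. Itgam among the 13 was at 0 in at least 1 library. In series 1 the sums of the 13 were 303 to 323 CPM with let-7d, 232 to 351 CPM with let-7e and 327 to 337 CPM in controls. There, 2 of the 13 fell with let-7d (6.28% of all genes) and 2 with let-7e (4.02% of all genes). Over both series 2 of the 13 rose with let-7d and none was called with let-7e. Of all genes, 6.41% rose and 9.81% fell with let-7d over both series, and 3.81% rose and 5.69% fell with let-7e. Of 8 fibroblast and precursor markers, 4 rose and 2 fell with let-7d, and 3 rose and 2 fell with let-7e. In series 1 these summed to 1185 to 1299 CPM with let-7d and 1225 to 1227 CPM with let-7e, against 972 to 1041 CPM in controls. Their series 2 sums were 2248 to 2670.1 CPM with let-7d and 2039.8 to 2120.2 CPM with let-7e, against 1720.5 to 2349 CPM in controls. Of 6 smooth muscle markers 3 fell with each mimic. In series 1 these 6 summed to 2857 to 2988 CPM with let-7d and 2606 to 2886 CPM with let-7e, against 3169 to 4222 CPM in controls. Their sums in series 2 were 5079 to 5556 CPM with let-7d and 5367 to 5499 CPM with let-7e, against 6476 to 6801 CPM in controls. In bulk RNA, fewer cells of a type and less RNA per cell cannot be told apart, and the part of these markers in the results on the 39 genes was not tested.

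With let-7d, 20 of the 39 genes fell and 1, Eno2, rose against control at an adjusted p under 0.05 in edgeR's quasi-likelihood test, with a term for series. Over all genes tested, 9.81% fell and 6.41% rose. The median log2 fold change of the 39 was -0.32, beside -0.0022 for all genes. Of the 39 estimates 31 were negative, beside 50.5% for all genes. With let-7e, 9 of the 39 fell and none rose, where 5.69% of all genes fell and 3.81% rose. Their median was -0.22, beside -0.0019 for all genes, and again 31 estimates were negative, beside 50.5% for all genes. With let-7e, 20 members had an unadjusted p under 0.05 in either direction, where 3610 of all 15754 genes did. For that mimic DESeq2 called 11 of the 39 (10.3% of all genes) and limma-voom 10 (8.92% of all genes), none of the members higher. The fold changes with let-7d and let-7e are set against the same 4 control libraries, so they are given side by side and not as independent results.

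The 8 genes called with both mimics were Pfkp, Pgam1, Egln3, Kdm3a, P4ha2, Ndrg1, Slc16a3 and Hk2, and the remaining let-7e call was the glucose transporter gene Slc2a3. Among the 21 let-7d calls, 20 had a let-7e estimate of smaller size. Those 21 were picked by their let-7d result, which favours larger let-7d estimates, so the count does not compare the mimics. By estimate, 29 of the 39 genes were lower with both mimics. In 25 of the 39, all 4 let-7d libraries lay below the control mean of their own series, and in 7 of the 39 all 4 let-7e libraries did. The shares of all genes lower with both mimics, or with all 4 libraries of a mimic below that mean, were not counted. These counts are therefore descriptions only. The 24 glycolysis genes gave 14 falls and 1 rise with let-7d (median -0.34) and 5 falls with let-7e (median -0.25). The 15 hypoxia genes gave 6 falls with let-7d (median -0.23) and 4 falls with let-7e (median -0.19).

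Most of the 39 genes lay under the control mean in every mimic library of series 1. Their median difference from the series 1 control mean, on the log2 CPM scale, was -0.55 and -0.48 in let-7d 1 and 2, and -0.45 and -0.46 in let-7e 1 and 2, against -0.13 and 0.13 in control 1 and 2. Between 34 and 36 of the 39 lay below the control mean in each of these mimic libraries. Of all 15754 genes, 7754 and 7747 did so in let-7d 1 and 2, and 7874 and 8070 in let-7e 1 and 2. In series 2 the medians were -0.090 and -0.18 in let-7d 3 and 4, and 0.16 and -0.055 in let-7e 3 and 4, against 0.0033 and -0.0033 in control 3 and 4. Below the control mean there were 27 and 30 genes in the let-7d libraries and 10 and 27 in the let-7e libraries. Of all 15754 genes, 8226 and 8287 were below it in let-7d 3 and 4, and 7518 and 8239 in let-7e 3 and 4. Let-7e 3 stood on the other side from the 3 other mimic libraries of series 2.

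**Figure D1:**
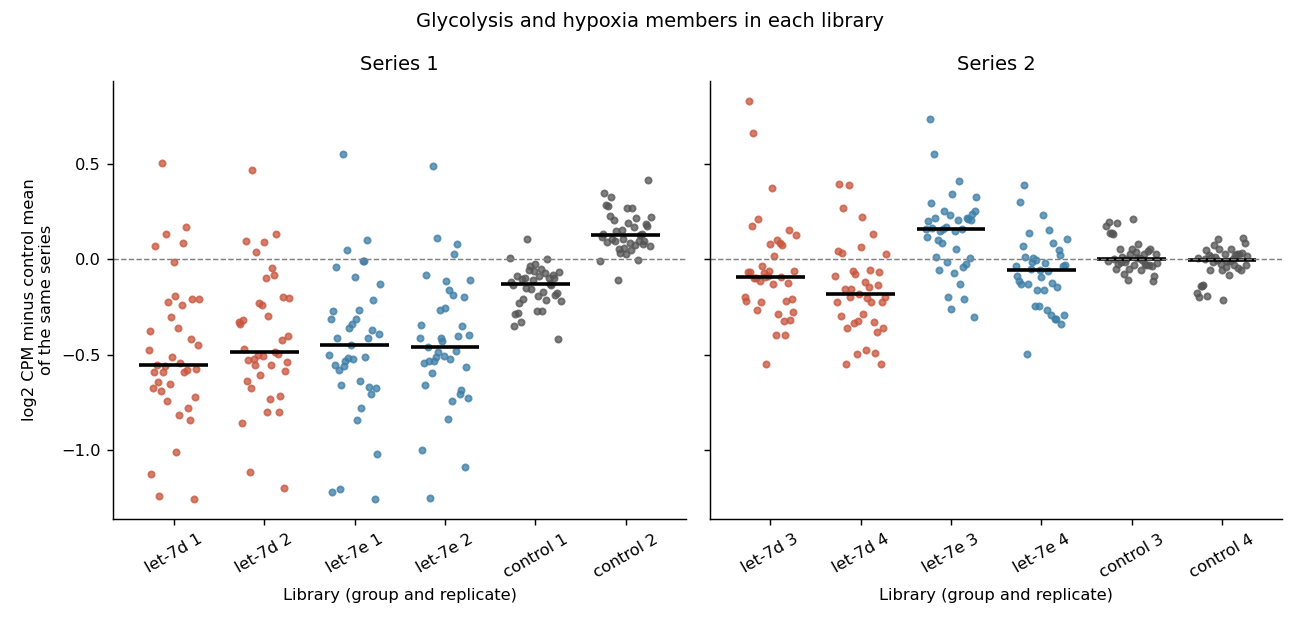
Each point is 1 of the 39 genes in 1 library, as its log2 CPM minus the mean of the control libraries of the same series, with series 1 and series 2 in separate panels and a bar at the median of the library. In series 1 the medians of the 4 mimic libraries lie between -0.55 and -0.45, under both control libraries, and in series 2 they lie between -0.18 and 0.16.

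Single libraries bore on these counts. Leaving out 1 of the 12 libraries at a time left 11 to 25 of the 39 called with let-7d (11.3 to 16.1% of all genes). With let-7e such fits called 3 to 16 (5.36 to 10.2% of all genes). In every such fit, 11 of the 21 let-7d calls and 3 of the 9 let-7e calls (Pfkp, Pgam1 and Kdm3a) were kept. The let-7d count was 12 without control 2 (13.9% of all genes), 11 without let-7d 1 (11.9%) and 13 without let-7d 4 (13.5%). With let-7e the count was 5 without control 1 (6.81% of all genes) and 4 without control 2 (7.39%). It was 3 without let-7e 1 (5.36%) or without let-7e 2 (5.55%), and 16 without let-7e 3 (7.23%). Control 2 held the highest value of the 6 series 1 libraries for 32 of the 39 genes, as it did for 22.3% of all genes. Without it the median log2 fold change of the 39 was -0.20 with let-7d and -0.11 with let-7e. Without a term for series, edgeR called none of the 39 with either mimic, where 8 had an unadjusted p under 0.05 with let-7d and 5 with let-7e. Over all 15754 genes that fit called 7 with let-7d and 0 with let-7e.

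Of the 17 glycolytic enzymes, 12 fell and 1 rose with let-7d (median -0.36), and 3 fell with let-7e (median -0.25). The 3 that fell with both were Hk2, Pfkp and Pgam1, which act at the entry of glucose, at its committed step and in the lower part of the pathway.

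Hk2 (ENSMUSG00000000628.10, chr6:82725025-82774454, minus strand, GRCm38.p6) encodes the insulin-regulated hexokinase, which traps glucose in the cell as glucose 6-phosphate. Hk2 had in series 1 levels of 143 and 148 CPM with let-7d, 165 and 169 CPM with let-7e and 202 and 251 CPM in the controls. Hk2 had in series 2 levels of 74.4 and 77.1 CPM with let-7d, 108 and 97.4 CPM with let-7e and 101 and 117 CPM in the controls. The let-7d libraries lay under every control library of their series, whereas the let-7e libraries did so in series 1 and overlapped the controls in series 2. Hk2 gave edgeR log2 fold changes of -0.58 ± 0.08 (adjusted p = 0.000157) with let-7d and -0.27 ± 0.079 (adjusted p = 0.0452) with let-7e. Hk2's let-7d call was kept in each of the 12 fits without 1 library. Hk2's let-7e call was lost without control 1, control 2, control 4, let-7d 1, let-7d 2, let-7d 4, let-7e 1, let-7e 2 or let-7e 4, with an adjusted p up to 0.168, and also with upper-quartile scaling. Hk1, the hexokinase most tissues carry, passed in neither comparison (log2 fold change -0.16 ± 0.069, adjusted p = 0.138 with let-7d; log2 fold change -0.11 ± 0.069, adjusted p = 0.374 with let-7e; edgeR).

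Gpi1, glucose-6-phosphate isomerase, fell with let-7d (log2 fold change -0.38 ± 0.093, adjusted p = 0.0107, edgeR; kept in each of the 12 fits without 1 library) and was at -0.25 ± 0.093 (adjusted p = 0.111) with let-7e. The 3 phosphofructokinase genes, which set the committed step, differed. Pfkp, the platelet-type subunit (chr13:6579768-6648777), had in series 1 levels of 81.1 and 86.0 CPM with let-7d, 91.4 and 91.8 CPM with let-7e and 114 and 129.7 CPM in the controls. Pfkp had in series 2 levels of 76.4 and 76.1 CPM with let-7d, 82.9 and 76.9 CPM with let-7e and 94.2 and 97.3 CPM in the controls. All mimic libraries lay under all control libraries of their series. Pfkp gave edgeR log2 fold changes of -0.43 ± 0.057 (adjusted p = 0.000107) with let-7d and -0.33 ± 0.056 (adjusted p = 0.00145) with let-7e. Both calls were kept in each of the 12 fits without 1 library. Pfkp shares 748 exonic bases with Pitrm1 on the opposite strand, and the strand setting of the counting is not given, so its counts are uncertain to that extent. Pfkl, the liver-type subunit, fell with let-7d (log2 fold change -0.36 ± 0.10, adjusted p = 0.0281, edgeR; lost without control 2, let-7d 1, let-7d 2 or let-7d 4, with an adjusted p up to 0.0892). Pfkm, the muscle-type subunit, stood at 0.13 ± 0.052 (adjusted p = 0.109) with let-7d and 0.058 ± 0.052 (adjusted p = 0.564) with let-7e.

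Aldolase splits the phosphorylated hexose into triose phosphates. Aldoa fell with let-7d (log2 fold change -0.29 ± 0.075, adjusted p = 0.0134, edgeR; kept in each of the 12 fits without 1 library), while the lower expressed Aldoc, which has a let-7 seed match, passed with neither mimic in edgeR and with both in DESeq2. Aldoc had in series 1 levels of 4.78 and 5.76 CPM with let-7d, 4.47 and 5.21 CPM with let-7e and 9.58 and 11.5 CPM in the controls. Aldoc had in series 2 levels of 4.12 and 4.45 CPM with let-7d, 4.98 and 3.98 CPM with let-7e and 4.96 and 3.76 CPM in the controls. Both mimics lay under the controls in series 1 and overlapped them in series 2. Aldoc gave edgeR log2 fold changes of -0.54 ± 0.20 (adjusted p = 0.0768) with let-7d and -0.57 ± 0.20 (adjusted p = 0.086) with let-7e. The triose steps that follow are carried by Tpi1 and Gapdh. Tpi1 fell with let-7d (log2 fold change -0.28 ± 0.089, adjusted p = 0.0398, edgeR), a call lost without control 1, control 2, let-7d 1, let-7d 2, let-7d 4 or let-7e 4, with an adjusted p up to 0.126, and under upper-quartile scaling as well. Gapdh fell with let-7d (log2 fold change -0.37 ± 0.096, adjusted p = 0.0162, edgeR; lost without control 2 or let-7d 1, with an adjusted p up to 0.0561). With let-7e the log2 fold change was -0.14 ± 0.089 (adjusted p = 0.388) for Tpi1 and -0.25 ± 0.096 (adjusted p = 0.119) for Gapdh.

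Pgk1, phosphoglycerate kinase, which makes ATP, fell with let-7d (log2 fold change -0.55 ± 0.12, adjusted p = 0.0061, edgeR; kept in each of the 12 fits without 1 library) and stood at -0.32 ± 0.12 (adjusted p = 0.114) with let-7e. Pgam1, phosphoglycerate mutase (chr19:41911923-41918660), had in series 1 levels of 64.6 and 63.7 CPM with let-7d, 69.8 and 67.9 CPM with let-7e and 101 and 121 CPM in the controls. Pgam1 had in series 2 levels of 69.4 and 64.9 CPM with let-7d, 89.9 and 73.6 CPM with let-7e and 89.5 and 93.2 CPM in the controls. The mimic libraries lay under the controls in series 1, and in series 2 let-7e 3 reached the control range. Pgam1 gave edgeR log2 fold changes of -0.62 ± 0.095 (adjusted p = 0.000383) with let-7d and -0.42 ± 0.093 (adjusted p = 0.00952) with let-7e. Both calls were kept in each of the 12 fits without 1 library. Gapdh, Pgam1 and Eno1 have near-identical copies elsewhere in the genome, so their counts are uncertain, because how reads with several matches were handled is not given. The other members were not screened for such copies.

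Enolase, which makes phosphoenolpyruvate, showed opposite signs in its 2 genes. Eno1, the broadly expressed form, fell with let-7d (log2 fold change -0.51 ± 0.099, adjusted p = 0.00255, edgeR; kept in each of the 12 fits without 1 library), and with let-7e it stood at -0.32 ± 0.099 (adjusted p = 0.0525), which DESeq2, limma-voom and RLE scaling called. Eno2, known as the neuronal enolase, had in series 1 levels of 12.3 and 11.9 CPM with let-7d, 12.7 and 12.1 CPM with let-7e and 7.45 and 9.95 CPM in the controls. Eno2 had in series 2 levels of 14.8 and 16.8 CPM with let-7d, 12.3 and 14.1 CPM with let-7e and 13.3 and 12.3 CPM in the controls. In the let-7d libraries it lay above all controls of the same series, while the let-7e libraries did so in series 1. Eno2 gave edgeR log2 fold changes of 0.38 ± 0.11 (adjusted p = 0.0243) with let-7d and 0.26 ± 0.11 (adjusted p = 0.155) with let-7e. The rise with let-7d was lost without control 1, let-7d 1 or let-7d 4, with an adjusted p up to 0.0803.

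Pkm, the pyruvate kinase of most tissues, fell with let-7d (log2 fold change -0.28 ± 0.081, adjusted p = 0.0271, edgeR; lost without control 1, control 2, let-7d 1, let-7d 2 or let-7d 4, with an adjusted p up to 0.088) and stood at -0.11 ± 0.081 (adjusted p = 0.446) with let-7e. Pkm shares 767 exonic bases with Gm49759 on the same strand. Ldha, the lactate dehydrogenase subunit known for making lactate, fell with let-7d (log2 fold change -0.32 ± 0.099, adjusted p = 0.035, edgeR; lost without control 1, control 2, let-7d 1, let-7d 2 or let-7d 4, with an adjusted p up to 0.11) and stood at -0.21 ± 0.099 (adjusted p = 0.209) with let-7e. Ldhb, the subunit of oxidative tissues, had in series 1 levels of 63.3 and 68.0 CPM with let-7d, 59.9 and 53.5 CPM with let-7e and 62.6 and 65.0 CPM in the controls. Ldhb had in series 2 levels of 40.8 and 40.3 CPM with let-7d, 32.1 and 36.1 CPM with let-7e and 40.0 and 37.1 CPM in the controls. The let-7e libraries lay under the controls in both series, while the let-7d libraries overlapped them in series 1 and lay above them in series 2. Ldhb gave edgeR log2 fold changes of 0.058 ± 0.054 (adjusted p = 0.519) with let-7d and -0.17 ± 0.054 (adjusted p = 0.0566) with let-7e. DESeq2 called the Ldhb fall with let-7e.

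Among the 4 transporters, Slc16a3 and Slc2a1 fell with let-7d and Slc16a3 and Slc2a3 fell with let-7e, with medians of -0.46 with let-7d and -0.44 with let-7e. Slc16a3 encodes the lactate exporter of glycolytic cells (chr11:120948480-120960868). Slc16a3 had in series 1 levels of 71.1 and 73.8 CPM with let-7d, 71.0 and 79.8 CPM with let-7e and 149 and 194 CPM in the controls. Slc16a3 had in series 2 levels of 106 and 90.7 CPM with let-7d, 153 and 105 CPM with let-7e and 129.7 and 136 CPM in the controls. In series 1 both mimics stood at about the same level, under both controls, and in series 2 let-7d lay under the controls while let-7e 3 lay above them. Slc16a3 gave edgeR log2 fold changes of -0.86 ± 0.18 (adjusted p = 0.00421) with let-7d and -0.61 ± 0.18 (adjusted p = 0.0415) with let-7e. Slc16a3's let-7d call was kept in each of the 12 fits without 1 library. Slc16a3's let-7e call was lost without control 1, control 2, let-7d 1, let-7d 2, let-7d 4, let-7e 1, let-7e 2 or let-7e 4, with an adjusted p up to 0.166, and DESeq2 did not call it.

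Slc2a1, the basal glucose transporter, fell with let-7d (log2 fold change -0.45 ± 0.12, adjusted p = 0.0192, edgeR; lost without control 2 or let-7d 1, with an adjusted p up to 0.0625) and stood at -0.26 ± 0.12 (adjusted p = 0.21) with let-7e. Slc2a3, a high-affinity glucose transporter and the other gene with a let-7 seed match, had in series 1 levels of 8.56 and 8.76 CPM with let-7d, 6.26 and 7.68 CPM with let-7e and 9.53 and 17.1 CPM in the controls. Slc2a3 had in series 2 levels of 4.35 and 4.09 CPM with let-7d, 4.26 and 4.29 CPM with let-7e and 4.96 and 5.60 CPM in the controls. Every mimic library lay under every control of its series, and control 2 was well above the rest. Slc2a3 gave edgeR log2 fold changes of -0.47 ± 0.17 (adjusted p = 0.0629) with let-7d and -0.63 ± 0.17 (adjusted p = 0.0244) with let-7e. DESeq2 called Slc2a3 with let-7d as well. Slc2a3's let-7e call was lost without control 2, let-7e 1 or let-7e 2, with an adjusted p up to 0.11. Slc16a1, the monocarboxylate transporter of most tissues, had in series 1 levels of 142 and 144 CPM with let-7d, 142 and 144 CPM with let-7e and 154 and 176 CPM in the controls. Slc16a1 had in series 2 levels of 102 and 87.7 CPM with let-7d, 92.2 and 93.0 CPM with let-7e and 95.1 and 88.3 CPM in the controls. The mimics lay under the controls in series 1 and overlapped them in series 2. Slc16a1 gave edgeR log2 fold changes of -0.08 ± 0.066 (adjusted p = 0.449) with let-7d and -0.10 ± 0.065 (adjusted p = 0.405) with let-7e.

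None of the 3 regulators of glycolysis was called by edgeR, DESeq2 or limma-voom with either mimic. In edgeR 1 of them, Pdk1, had an unadjusted p under 0.05 with each, while in DESeq2 none had one. Pdk1, pyruvate dehydrogenase kinase, which restrains the entry of pyruvate carbon into the citric acid cycle, had in series 1 levels of 89.4 and 88.7 CPM with let-7d, 75.8 and 78.0 CPM with let-7e and 108 and 157 CPM in the controls. Pdk1 had in series 2 levels of 82.8 and 67.2 CPM with let-7d, 89.0 and 73.9 CPM with let-7e and 81.8 and 72.9 CPM in the controls. In series 1 both mimics lay under the controls and control 2 stood above all others, and in series 2 the groups overlapped. Pdk1 gave edgeR log2 fold changes of -0.32 ± 0.14 (adjusted p = 0.147) with let-7d and -0.35 ± 0.14 (adjusted p = 0.151) with let-7e. Pfkfb4, which makes and breaks the sugar bisphosphate that activates phosphofructokinase, had in series 1 levels of 14.5 and 12.8 CPM with let-7d, 13.5 and 13.9 CPM with let-7e and 12.9 and 14.3 CPM in the controls. Pfkfb4 had in series 2 levels of 9.22 and 8.34 CPM with let-7d, 7.93 and 7.08 CPM with let-7e and 8.34 and 9.04 CPM in the controls. Its let-7d libraries overlapped the controls in both series. Pfkfb4 gave edgeR log2 fold changes of 0.0093 ± 0.086 (adjusted p = 0.961) with let-7d and -0.093 ± 0.085 (adjusted p = 0.578) with let-7e. Pfkfb3, the isozyme that favours making this activator, stood at -0.18 ± 0.10 (adjusted p = 0.26) with let-7d and 0.087 ± 0.1 (adjusted p = 0.67) with let-7e in edgeR.

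The HIF subunit itself did not pass, while 2 prolyl hydroxylase genes fell with let-7d. Hif1a, the oxygen-regulated HIF-1 subunit, had in series 1 levels of 333 and 311 CPM with let-7d, 314 and 328 CPM with let-7e and 327 and 281 CPM in the controls. Hif1a had in series 2 levels of 377 and 370.4 CPM with let-7d, 432 and 388 CPM with let-7e and 366 and 407 CPM in the controls. Mimic and control libraries overlapped in both series. Hif1a gave edgeR log2 fold changes of 0.017 ± 0.061 (adjusted p = 0.893) with let-7d and 0.081 ± 0.061 (adjusted p = 0.474) with let-7e. Its message level does not give the protein level, which oxygen controls through destruction of the protein. Hif1a shares 330 exonic bases with Gm15283 on the opposite strand.

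Egln3, a HIF prolyl hydroxylase that is itself a HIF target (chr12:54178981-54203860), had in series 1 levels of 57.3 and 62.6 CPM with let-7d, 58.8 and 56.9 CPM with let-7e and 108 and 170.1 CPM in the controls. Egln3 had in series 2 levels of 15.9 and 11.6 CPM with let-7d, 17.2 and 12 CPM with let-7e and 19.4 and 14.8 CPM in the controls. In series 1 the mimics lay under both controls, control 2 being the highest, and in series 2 the groups overlapped at a far lower level. Egln3 gave edgeR log2 fold changes of -0.85 ± 0.20 (adjusted p = 0.00743) with let-7d and -0.83 ± 0.19 (adjusted p = 0.0126) with let-7e. Egln3's let-7d call was kept in each of the 12 fits without 1 library. Egln3's let-7e call was lost without let-7e 1 or let-7e 2, with an adjusted p up to 0.0676. Egln1, the main HIF prolyl hydroxylase, fell with let-7d (log2 fold change -0.37 ± 0.12, adjusted p = 0.0406, edgeR) and stood at -0.23 ± 0.12 (adjusted p = 0.257) with let-7e. Its let-7d call was lost without control 1, control 2, let-7d 1, let-7d 2, let-7d 3, let-7d 4 or let-7e 4, with an adjusted p up to 0.116, and under upper-quartile scaling as well.

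Of the 3 mitochondrial proteins of the hypoxia response, Higd1a, which associates with respiratory complexes, fell with let-7d and none was called with let-7e by edgeR, DESeq2 or limma-voom. In edgeR none of these 3 had an unadjusted p under 0.05 with let-7e. Higd1a had in series 1 levels of 29.6 and 35.0 CPM with let-7d, 34.7 and 35.3 CPM with let-7e and 47.7 and 51.5 CPM in the controls. Higd1a had in series 2 levels of 63.6 and 52.9 CPM with let-7d, 79.6 and 56.4 CPM with let-7e and 66.2 and 67.3 CPM in the controls. The let-7d libraries lay under the controls in both series, and let-7e 3 lay above them in series 2. Higd1a gave edgeR log2 fold changes of -0.39 ± 0.12 (adjusted p = 0.0287) with let-7d and -0.22 ± 0.11 (adjusted p = 0.267) with let-7e. Higd1a's let-7d call was lost without control 1, control 2, let-7d 1, let-7d 2 or let-7d 4, with an adjusted p up to 0.0877. Bnip3l, a receptor for mitochondrial autophagy, had in series 1 levels of 107 and 109 CPM with let-7d, 99.0 and 96.2 CPM with let-7e and 95.8 and 108 CPM in the controls. Bnip3l had in series 2 levels of 133 and 121 CPM with let-7d, 132 and 124 CPM with let-7e and 129 and 107 CPM in the controls. The groups overlapped in both series. Bnip3l gave edgeR log2 fold changes of 0.09 ± 0.065 (adjusted p = 0.389) with let-7d and 0.028 ± 0.065 (adjusted p = 0.849) with let-7e. Its relative Bnip3 stood at -0.38 ± 0.14 (adjusted p = 0.0836) with let-7d and -0.27 ± 0.14 (adjusted p = 0.284) with let-7e.

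The 2 secreted factors passed with neither mimic in edgeR. Adm, the vasodilator peptide adrenomedullin, had an unadjusted p under 0.05 with let-7d and was called there by DESeq2. With let-7e neither factor had one in edgeR, and DESeq2 and limma-voom called none. Adm had in series 1 levels of 41.4 and 46.0 CPM with let-7d, 40.7 and 43.4 CPM with let-7e and 58.0 and 57.3 CPM in the controls. Adm had in series 2 levels of 59.1 and 63.9 CPM with let-7d, 75.8 and 66.2 CPM with let-7e and 76.8 and 60.0 CPM in the controls. The mimics lay under the controls in series 1, and control 3 stood far above control 4 in series 2. Adm gave edgeR log2 fold changes of -0.27 ± 0.096 (adjusted p = 0.0634) with let-7d and -0.19 ± 0.095 (adjusted p = 0.26) with let-7e. Vegfa, the vascular growth factor, had in series 1 levels of 296 and 298 CPM with let-7d, 314 and 318 CPM with let-7e and 294 and 399 CPM in the controls. Vegfa had in series 2 levels of 247 and 230.4 CPM with let-7d, 284 and 244 CPM with let-7e and 223 and 229 CPM in the controls. The groups overlapped in series 1, and in series 2 every mimic library lay above both controls. Vegfa gave edgeR log2 fold changes of -0.074 ± 0.089 (adjusted p = 0.633) with let-7d and 0.042 ± 0.089 (adjusted p = 0.832) with let-7e.

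Of the 7 genes of matrix, chromatin and growth, P4ha2, Kdm3a and Ndrg1 fell with each mimic. P4ha2, a collagen prolyl hydroxylase subunit (chr11:54100095-54131665), had in series 1 levels of 122 and 129 CPM with let-7d, 138 and 149.8 CPM with let-7e and 207 and 223 CPM in the controls. P4ha2 had in series 2 levels of 170.2 and 161 CPM with let-7d, 233 and 186 CPM with let-7e and 225 and 222 CPM in the controls. The let-7d libraries lay under the controls in both series, while let-7e did so in series 1 and let-7e 3 exceeded the controls in series 2. P4ha2 gave edgeR log2 fold changes of -0.61 ± 0.088 (adjusted p = 0.000255) with let-7d and -0.34 ± 0.087 (adjusted p = 0.024) with let-7e. P4ha2's let-7d call was kept in each of the 12 fits without 1 library. P4ha2's let-7e call was lost without control 1, control 2, let-7e 1, let-7e 2 or let-7e 4, with an adjusted p up to 0.102. P4ha1, the other collagen hydroxylase subunit, stood at -0.19 ± 0.07 (adjusted p = 0.0752) with let-7d, where DESeq2 called it, and -0.077 ± 0.07 (adjusted p = 0.577) with let-7e.

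Kdm3a, a histone demethylase that needs oxygen, had in series 1 levels of 41.5 and 43.3 CPM with let-7d, 40.4 and 38.0 CPM with let-7e and 47.6 and 55.2 CPM in the controls. Kdm3a had in series 2 levels of 45.8 and 38.9 CPM with let-7d, 42.5 and 41.0 CPM with let-7e and 46.9 and 50.5 CPM in the controls. All mimic libraries lay under all controls of their series. Kdm3a gave edgeR log2 fold changes of -0.23 ± 0.064 (adjusted p = 0.0209) with let-7d and -0.30 ± 0.064 (adjusted p = 0.00772) with let-7e. Kdm3a's let-7d call was lost without control 2, let-7d 1 or let-7d 4, with an adjusted p up to 0.0725, and the let-7e call was kept in each of the 12 fits without 1 library. Ndrg1, a stress-response gene known for its induction by hypoxia, had in series 1 levels of 27.2 and 31.4 CPM with let-7d, 30.5 and 30.6 CPM with let-7e and 47.9 and 62.6 CPM in the controls. Ndrg1 had in series 2 levels of 39.8 and 35.7 CPM with let-7d, 41.6 and 38.9 CPM with let-7e and 42.7 and 44.5 CPM in the controls. It too lay lower in every mimic library than in any control of the same series, with a wide gap in series 1 and a narrow one in series 2. Ndrg1 gave edgeR log2 fold changes of -0.55 ± 0.13 (adjusted p = 0.00825) with let-7d and -0.48 ± 0.13 (adjusted p = 0.0258) with let-7e. Ndrg1's let-7d call was kept in each of the 12 fits without 1 library. Ndrg1's let-7e call was lost without control 1, control 2, let-7e 1 or let-7e 2, with an adjusted p up to 0.101.

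Ddit4, an inhibitor of mTORC1 signalling, moved in opposite directions in the 2 series with let-7d. Ddit4 had in series 1 levels of 96.1 and 90.8 CPM with let-7d, 106 and 103 CPM with let-7e and 116 and 171 CPM in the controls. Ddit4 had in series 2 levels of 152 and 115 CPM with let-7d, 140.1 and 126 CPM with let-7e and 95.6 and 95.6 CPM in the controls. Every mimic library lay under both controls in series 1 and above both in series 2. Against control, edgeR gave -0.081 ± 0.18 (adjusted p = 0.815) with let-7d and -0.017 ± 0.18 (adjusted p = 0.972) with let-7e, as log2 fold changes. Within series 2 the let-7d log2 fold change of Ddit4 was 0.48 ± 0.14 (adjusted p = 0.0486) and the let-7e one 0.48 ± 0.14 (adjusted p = 0.0997). Within series 1 it was -0.62 ± 0.14 (adjusted p = 0.0137) with let-7d and -0.46 ± 0.14 (adjusted p = 0.0686) with let-7e, in edgeR. Mxi1, an antagonist of MYC, stood at 0.068 ± 0.12 (adjusted p = 0.766) with let-7d and 0.03 ± 0.12 (adjusted p = 0.922) with let-7e. Ankrd37, the lowest expressed of the 39, stood at 0.19 ± 0.22 (adjusted p = 0.629) with let-7d and 0.15 ± 0.22 (adjusted p = 0.745) with let-7e. It shares 349 exonic bases with Lrp2bp on the opposite strand. These estimates over both series hide a split between them. For Mxi1 and Ankrd37, mimics and controls overlapped in series 1, and every mimic library lay above both controls in series 2. Series 2 levels of Ankrd37 were 8.01 and 5.90 CPM with let-7d, 7.51 and 5.53 CPM with let-7e and 4.92 and 4.05 CPM in the controls.

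**Figure D2:**
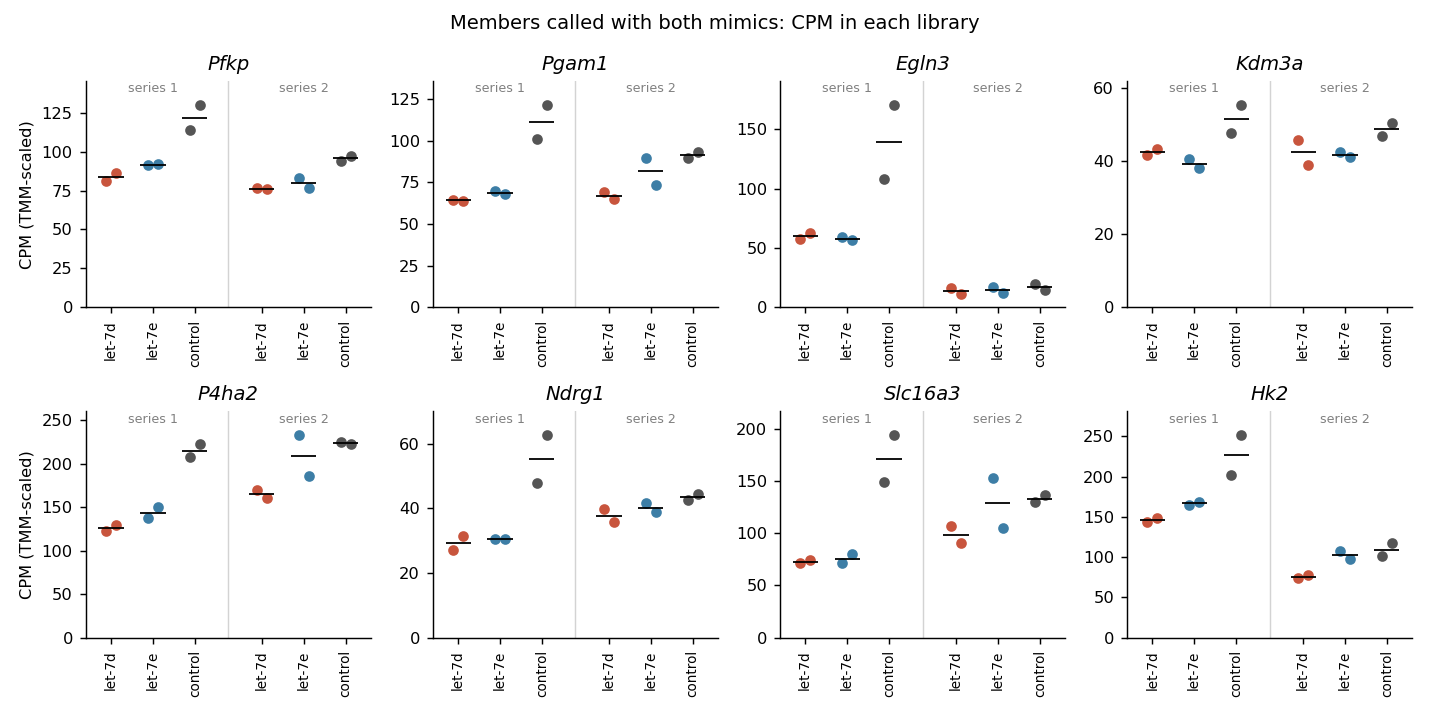
CPM of the 8 genes called with both mimics, with 1 point for each library, series 1 left and series 2 right of the vertical line in each panel, let-7d, let-7e and control from left to right, and a bar at the mean of the 2 libraries. For all 8 genes the mimic libraries of series 1 lie under both series 1 controls, and in series 2 they do so throughout for Pfkp, Kdm3a and Ndrg1.

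**Figure D3:**
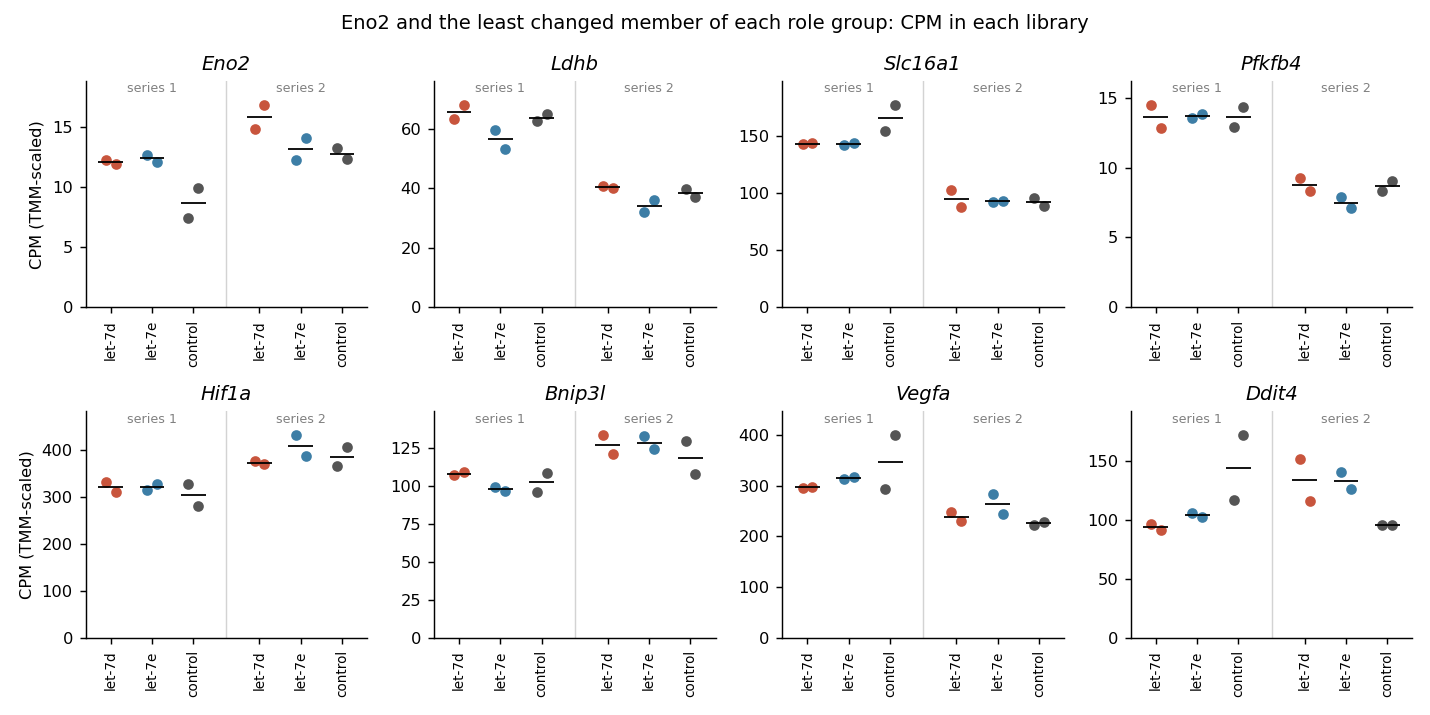
CPM by library of Eno2, the gene that rose with let-7d, and of the gene with the largest p in each role group (Ldhb, Slc16a1, Pfkfb4, Hif1a, Bnip3l, Vegfa and Ddit4), drawn in the same way. For Hif1a, Bnip3l and Pfkfb4 the let-7d libraries overlap the controls in both series, and for Ddit4 the mimics lie under the controls in series 1 and above them in series 2.

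Taken within series 1, 26 of the 39 genes fell and 1 rose with let-7d, where 6.28% of all genes fell and 4.59% rose, and the median was -0.54. With let-7e, 26 fell and 1 rose there, where 4.02% of all genes fell and 3.10% rose, and the median was -0.46. Eno2 was the gene that rose with each. In series 2, let-7d gave 5 falls and 1 rise, where 5.26% of all genes fell and 3.29% rose, and the median was -0.15. The falls were Hk2 (-0.53, adjusted p = 0.00435), Pfkp (-0.33, adjusted p = 0.0118), Pgam1 (-0.44, adjusted p = 0.0101), Eno1 (-0.31, adjusted p = 0.0377) and P4ha2 (-0.43, adjusted p = 0.00869) in edgeR. The rise was Ddit4 (0.48, adjusted p = 0.0486), which neither DESeq2, limma-voom nor RLE scaling called. With let-7e none of the 39 was called in series 2 by edgeR, DESeq2 or limma-voom, where 1.56% of all genes fell and 0.914% rose in edgeR. There, 6 of the 39 had an unadjusted p under 0.05, where 2374 of all 15754 genes did. The median of the 39 was 0.044 and 12 estimates were negative, beside 50.2% for all genes.

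These values also moved with single libraries. Without 1 library the series 1 medians lay between -0.65 and -0.33 with let-7d and between -0.58 and -0.30 with let-7e, nearest to 0 without control 2. The series 2 medians lay between -0.18 and -0.090 with let-7d, nearest to 0 without let-7d 4. With let-7e the sign of the series 2 median turned, at -0.056 without let-7e 3 and 0.16 without let-7e 4, and it was 0.015 without control 4. Leaving out a library of the series tested left 1 library in its group there, so counts of calls are not given here for such fits. The number called among all genes changed in those fits as well. With all series 2 libraries kept, the series 2 let-7e count was 2 without control 1 (3.07% of all genes) or without control 2 (3.04% of all genes). In series 2 the fall of Hk2 was lost without control 4, with an adjusted p up to 0.0562, that of Pfkp lost without control 4 or let-7d 3, with an adjusted p up to 0.0838, that of Pgam1 lost without control 4 or let-7d 4, with an adjusted p up to 0.0754 and that of Eno1 lost without control 3, control 4, let-7d 1, let-7d 2, let-7d 3, let-7d 4, let-7e 1 or let-7e 2, with an adjusted p up to 0.183. The rise of Ddit4 was lost without control 3, control 4, let-7d 1, let-7d 2, let-7d 3, let-7e 1, let-7e 2, let-7e 3 or let-7e 4, with an adjusted p up to 0.431.

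By position alone, both let-7d libraries lay under both controls for 29 of the 39 genes in series 1 (27.6% of all genes) and for 22 in series 2 (27.6% of all genes). Both let-7e libraries did so for 30 genes in series 1 (27.0% of all genes) and for 6 in series 2 (21.7% of all genes). Both let-7d libraries lay above both controls for 2 genes in series 1 (27.0% of all genes) and for 7 in series 2 (22.8% of all genes). Both let-7e libraries did for 2 genes in series 1 (24.8% of all genes) and for 6 in series 2 (20.4% of all genes). Of the 17 enzymes, 14 lay under the controls in series 1 and 13 in series 2 with let-7d. With let-7e, 15 did in series 1 and 2 in series 2.

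The difference between the series was tested as an interaction. For let-7d, 1 of the 39 genes was called, where 0.241% of all genes were: Ddit4, whose let-7d effect in series 2 minus that in series 1 was 1.10 ± 0.20 on the log2 scale (adjusted p = 0.0449, edgeR). That call was lost without control 3, control 4, let-7d 1, let-7d 2, let-7d 3, let-7e 1 or let-7e 2, with an adjusted p up to 0.24, and limma-voom and a filter at 1 CPM did not make it. The median difference over the 39 was 0.34, 35 of the 39 were positive and 22 had an unadjusted p under 0.05. Of all 15754 genes 2136 had one, and 52.9% of their differences were negative. For let-7e, edgeR called none of the 39, where 0.00635% of all genes were called. The median difference was 0.51, 35 were positive and 30 had an unadjusted p under 0.05. Of all 15754 genes 1398 had one, and 50.4% of their differences were negative. In the same comparison limma-voom called none of the 39 and DESeq2 called 12 (0.317% of all genes). DESeq2 called 3 for let-7d, Gapdh, Ddit4 and Ndrg1 (1.24% of all genes). Without control 1, edgeR called 10 of the 39 for let-7d (1.39% of all genes) and 19 for let-7e (0.971% of all genes). Without let-7e 4 it called 2 for let-7d (0.368% of all genes) and 6 for let-7e (0.108% of all genes). For let-7d, Ndrg1 was called as well without let-7d 4, and Slc16a3 was called as well without let-7e 3.

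**Figure D4:**
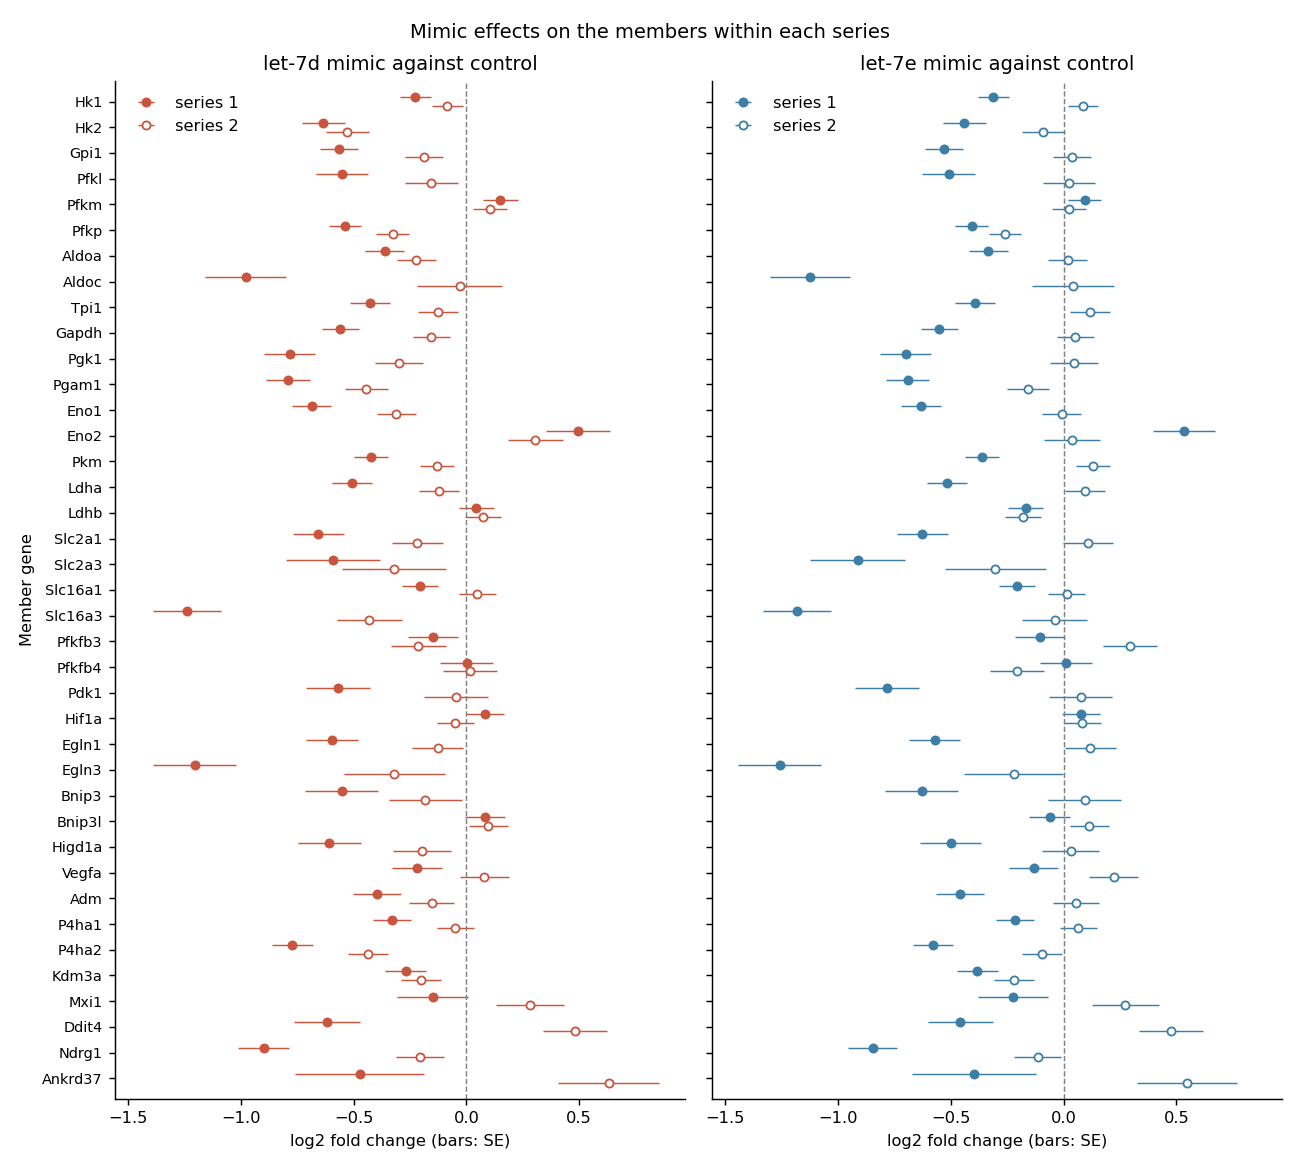
The log2 fold change against control of each of the 39 genes, with its standard error, in series 1 (filled points) and in series 2 (open points), with let-7d in the left panel and let-7e in the right. With let-7e the series 2 points lie around 0 (median 0.044), while the series 1 points lie mostly under it (median -0.46). With let-7d the medians are -0.15 in series 2 and -0.54 in series 1.

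In series 2 the 2 let-7e libraries also differed from each other. Let-7e 3 was above let-7e 4 for 34 of the 39 genes, as it was for 54.8% of all genes, and held the highest value of the 6 series 2 libraries for 22 of the 39 (17.5% of all genes). Without let-7e 3, the median with let-7e over both series was -0.32 and 16 genes were called, where 7.23% of all genes were. The 16 were the 9 named and Aldoa, Aldoc, Eno1, Gapdh, Higd1a, Ldha and Pgk1.

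In edgeR none of the 39 was called with let-7d set directly against let-7e, where 0.152% of all genes were. Estimates were negative for 27 of the 39 (median -0.11), as they were for 51.7% of all genes, and the median was -0.012 without let-7e 3. In edgeR 4 of the 39 had an unadjusted p under 0.05, where 1467 of all 15754 genes did. DESeq2 called 2, Hk2 and Ldhb (0.73% of all genes), and limma-voom called none. In edgeR the difference of let-7d minus let-7e was -0.32 ± 0.08 for Hk2 (adjusted p = 0.148) and 0.23 ± 0.054 for Ldhb (adjusted p = 0.13). Hk2 was called without control 2. For Pfkp, the gene with the smallest p against control, the difference was -0.10 ± 0.057 (adjusted p = 0.627, edgeR).

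The differences between the series reached further than those with the mimics. Of the 39 genes, 14 were higher and 18 lower in series 2 than in series 1, where 41.7% of all genes were higher and 40.0% lower. Pfkfb3 (-2.56 ± 0.085) and Egln3 (-2.38 ± 0.16) were lower by the most, and Pgk1 (1.03 ± 0.10) and P4ha1 (1.00 ± 0.058) were higher by the most, as log2 fold changes with all 4 at an adjusted p of at most 4.9e-08 in edgeR. Enzymes of a single pathway differed in direction between the series. Hk2 (-0.90 ± 0.065) and Aldoa (-0.67 ± 0.061) were lower in series 2, and Gapdh (0.69 ± 0.079) and Eno1 (0.80 ± 0.081) were higher. The 11 adipocyte markers were all lower in series 2 as well, and their part in these differences was not tested. What sets the series apart is not in the labels.

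Levels are given here per length, as CPM per kilobase of the merged exons of all annotated transcripts. That length (4133 bases for Gapdh and 2911 for Aldoa) can exceed the transcript in use, by an amount that differs between genes. Comparisons between genes are therefore rough, and the counts of Gapdh are uncertain as said above. In series 1, Aldoa had 709 CPM per kilobase with let-7d, 723 with let-7e and 912 in controls. Ldha had 302 CPM per kilobase with let-7d, 301 with let-7e and 430.2 in controls. Pkm had 209 CPM per kilobase with let-7d, 218 with let-7e and 280.1 in controls. Gapdh had 132 CPM per kilobase with let-7d, 133 with let-7e and 194 in controls, and Pgk1 had 45.8 CPM per kilobase with let-7d, 48.6 with let-7e and 79.1 in controls. On this scale the hexokinases were low, as Hk2 had 24.4 CPM per kilobase with let-7d, 28.0 with let-7e and 38.0 in controls. Hk1 had 12.6 CPM per kilobase with let-7d, 11.9 with let-7e and 14.7 in controls. In series 2, Aldoa had 439 CPM per kilobase with let-7d, 519 with let-7e and 512 in controls, and Gapdh had 223 with let-7d, 258 with let-7e and 248 in controls. At the transporters, Slc2a1 had 28.5 CPM per kilobase with let-7d, 29.1 with let-7e and 45.0 in controls in series 1, and Slc2a3 had 1.20 CPM per kilobase with let-7d, 0.962 with let-7e and 1.84 in controls. Slc16a3 had 13.6 CPM per kilobase with let-7d, 14.2 with let-7e and 32.2 in controls.

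The promoters of 5 genes, chosen after their values were seen, are printed. Hk2, P4ha2, Slc16a3 and Egln3 are from the 8 that fell with both mimics, and Ddit4 moved in opposite directions in the 2 series with let-7d. Each runs from 250 bases before to 50 after an annotated RefSeq start (GRCm38.p6), and the HIF core words ACGTG and GCGTG, on either strand, are in capitals. Every printed window holds such a word. Pfkp, Pgam1 and Kdm3a fell with both mimics too and have windows that are not printed, some of Kdm3a's without either word.
Hk2 chr6:82774405-82774704 strand minus: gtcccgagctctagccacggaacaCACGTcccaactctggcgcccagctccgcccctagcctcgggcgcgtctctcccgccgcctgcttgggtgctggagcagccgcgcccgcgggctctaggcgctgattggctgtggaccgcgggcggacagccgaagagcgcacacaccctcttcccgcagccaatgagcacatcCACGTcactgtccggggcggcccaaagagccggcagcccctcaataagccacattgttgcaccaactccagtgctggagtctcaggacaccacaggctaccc
P4ha2 chr11:54100674-54100973 strand plus: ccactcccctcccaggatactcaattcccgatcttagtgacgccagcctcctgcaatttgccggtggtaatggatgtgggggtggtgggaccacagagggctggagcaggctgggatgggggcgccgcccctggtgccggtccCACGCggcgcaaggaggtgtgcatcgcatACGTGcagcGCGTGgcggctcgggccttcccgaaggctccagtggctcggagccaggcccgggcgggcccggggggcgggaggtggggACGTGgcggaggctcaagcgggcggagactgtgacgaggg
Slc16a3 chr11:120948817-120949116 strand plus: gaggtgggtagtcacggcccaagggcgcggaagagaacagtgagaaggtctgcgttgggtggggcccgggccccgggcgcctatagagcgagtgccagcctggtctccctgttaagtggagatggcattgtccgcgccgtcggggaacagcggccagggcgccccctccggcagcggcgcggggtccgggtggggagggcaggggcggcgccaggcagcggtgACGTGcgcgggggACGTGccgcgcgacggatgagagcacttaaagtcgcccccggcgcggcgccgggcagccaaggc
Egln3 chr12:54203825-54204124 strand minus: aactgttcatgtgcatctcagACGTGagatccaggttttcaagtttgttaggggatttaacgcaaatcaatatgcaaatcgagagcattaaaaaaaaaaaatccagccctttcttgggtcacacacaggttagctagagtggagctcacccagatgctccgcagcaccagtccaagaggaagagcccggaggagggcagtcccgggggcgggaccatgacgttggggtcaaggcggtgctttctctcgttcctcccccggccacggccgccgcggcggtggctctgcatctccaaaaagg
Ddit4 chr10:59951721-59952020 strand minus: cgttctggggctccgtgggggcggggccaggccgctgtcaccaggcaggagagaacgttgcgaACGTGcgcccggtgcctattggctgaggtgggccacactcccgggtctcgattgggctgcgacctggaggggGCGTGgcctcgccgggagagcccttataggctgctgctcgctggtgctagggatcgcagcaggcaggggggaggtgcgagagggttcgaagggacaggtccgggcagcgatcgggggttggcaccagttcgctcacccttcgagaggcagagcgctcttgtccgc
Windows were found for 36 of the 39 genes, 54 windows in all. Either word was in 77.8% of the 54 windows, beside 43.8% of 32851 promoter windows of all genes. ACGTG was in 53.7%, beside 19.6%, and GCGTG in 55.6%, beside 32.4%. The windows were not matched for base composition. A match is a description of letters, not a site of binding.

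Other genes of these pathways were taken from wider lists. For every list below, the shares over all genes were 9.81% lower and 6.41% higher with let-7d, and 5.69% lower and 3.81% higher with let-7e. Among 18 further isozymes and transporters of glycolysis, 2 fell with let-7d (median -0.038) and none was called with let-7e (median -0.081), where 3 had an unadjusted p under 0.05, DESeq2 called 2 and limma-voom none. The 2 were Slc2a10 (-0.24 ± 0.065, adjusted p = 0.0207) and Pfkfb1 (-0.42 ± 0.13, adjusted p = 0.0335) in edgeR. Of 13 genes that decide the fate of pyruvate, 4 fell and 1 rose with let-7d and 2 fell with let-7e. Pcx, pyruvate carboxylase, fell with both (-0.84 ± 0.11, adjusted p = 9.63e-05 with let-7d; -0.56 ± 0.11, adjusted p = 0.00396 with let-7e; edgeR). Pdk2, a pyruvate dehydrogenase kinase, fell with both (-0.41 ± 0.10 with let-7d and -0.43 ± 0.10 with let-7e). Pdp1, the opposing phosphatase, rose with let-7d (0.42 ± 0.09, adjusted p = 0.00506, edgeR), while Dlat, a pyruvate dehydrogenase subunit, fell with let-7d (-0.20 ± 0.059, adjusted p = 0.0271, edgeR) and so did Pdp2, another phosphatase (-0.19 ± 0.062, adjusted p = 0.0454, edgeR).

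Of 20 genes of the pentose phosphate, glycogen and gluconeogenic routes, 8 fell and 1 rose with let-7d and 5 fell and 1 rose with let-7e. Ugp2, which makes UDP-glucose, fell with both (-0.30 ± 0.046, adjusted p = 0.000397 with let-7d; -0.23 ± 0.045, adjusted p = 0.00449 with let-7e; edgeR). Gys1, glycogen synthase, fell with both (-0.53 ± 0.093 with let-7d and -0.39 ± 0.092 with let-7e), and so did Pygb, a glycogen phosphorylase (-0.25 ± 0.045 with let-7d and -0.20 ± 0.045 with let-7e), and Gyg, the glycogenin primer (-0.23 ± 0.066 with let-7d and -0.26 ± 0.066 with let-7e). Pgm2 fell with let-7d (-0.24 ± 0.061). Rpia, ribose-5-phosphate isomerase, rose with both (0.21 ± 0.067 with let-7d and 0.29 ± 0.066 with let-7e).

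Among 7 further genes of the HIF machinery, 2 fell and 1 rose with let-7d and 1 fell and 1 rose with let-7e. Hif1an, the asparaginyl hydroxylase that blocks HIF activity, fell with both (-0.34 ± 0.061, adjusted p = 0.00132 with let-7d; -0.26 ± 0.06, adjusted p = 0.0116 with let-7e; edgeR). Epas1, the HIF-2 alpha subunit, rose with both (0.33 ± 0.064, adjusted p = 0.00264 with let-7d; 0.22 ± 0.064, adjusted p = 0.0369 with let-7e; edgeR). Egln2 fell with let-7d (-0.20 ± 0.061). Of 39 other known hypoxia targets, 12 fell and 1 rose with let-7d (median -0.15), and 5 fell and 2 rose with let-7e (median -0.14). Loxl2, a collagen cross-linking oxidase (-0.54 ± 0.051 with let-7d and -0.33 ± 0.051 with let-7e), Flt1, a receptor for vascular growth factor (-0.49 ± 0.057 with let-7d and -0.32 ± 0.056 with let-7e), Plod1, a lysyl hydroxylase (-0.44 ± 0.076 with let-7d and -0.30 ± 0.076 with let-7e), and Vldlr, a lipoprotein receptor (-0.23 ± 0.051 with let-7d and -0.25 ± 0.051 with let-7e), fell with both. Hmox1, heme oxygenase, rose with both (0.32 ± 0.086 with let-7d and 0.40 ± 0.086 with let-7e).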

How the data were processed

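Total RNA of 12 libraries (4 per group) was measured as whole-number counts per Ensembl gene, which the authors deposited without normalization. Per the submitters' processing notes, STAR was a tool and GRCm38.p6 the genome build. The read counter, the use of strand and the handling of multiply matching reads are not given in these notes or in the labels. The authors also deposited a table named RPKM, read here as a score. It entered no result, since the gene length it implies differs between libraries by a median ratio of 69.1.

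Identifiers were matched to symbols for 15736 of 15754 genes. Aldoa had another row, with 246 counts over all libraries, and the row with 495905 was taken as the member. Counts were scaled by TMM (factors 0.954 to 1.04) and tested in edgeR 4.0.16 (R 4.3.3) by the quasi-likelihood test, two-sided, with group and series as terms (8 residual degrees of freedom; 6 for effects within a series and their difference). Adjusted p-values are edgeR's after Benjamini and Hochberg over all 15754 genes, called under 0.05; filterByExpr removed 0 genes. Fold changes are log2 with standard error, and per-library differences use log2 CPM with a prior count of 2. On counts simulated with the same mimic effect in both series, the script recovered most genes given a log2 fold change of 1. No minimum was set for smaller changes. Replicates differed beyond counting noise (chi-square per degree of freedom 2.31 to 9.92), so none was merged. Alternatives were RLE and upper-quartile scaling, DESeq2 1.42.0, limma-voom (limma 3.58.1), a filter at 1 CPM in 4 libraries, no series term, a replicate block and leaving out each library. Members and lists were chosen with earlier results of these data known. Values in every library are given for genes called with both mimics and for the gene with the smallest and the largest p with let-7d in each role group; Eno2, Aldoc and Slc2a3 were added after their values or sites were seen. Other lists give at most 6 called genes. A called gene of these lists is not reported here.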

Additional observations from a re-analysis of the deposited data

Results flagged for a closer look

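Adm in control 3, at 76.8 CPM, stood apart from the other controls, at 58.0, 57.3 and 60.0 CPM in control 1, 2 and 4, by a gap large relative to the range of the 4. P4ha2 in control 1, at 207 CPM, stood apart in the same way from 223, 225 and 222 CPM in control 2, 3 and 4. These were 2 of 117 such gap tests, 39 genes in 3 groups, and chance flags about 1 group in 20. The groups of 4 hold both series. The let-7d effect on Ddit4 differed between the series by 1.099 on the log2 scale (series 2 minus series 1), with 0.48 ± 0.14 in series 2 and -0.62 ± 0.14 in series 1. In series 2 the summed macrophage markers were 63.7 to 149 CPM with let-7d, against 26.9 to 38.5 CPM in controls, and their part in the Ddit4 result was not tested.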

How the results depend on the processing

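Counts of genes called among the 39 were within 1.5 times the reported count under RLE scaling, upper-quartile scaling, DESeq2, limma-voom and a filter at 1 CPM (13878 genes) for both mimics against control, within each series and between the series. Without a term for series 0 were called with either mimic, where 7 of all 15754 genes were called with let-7d and 0 with let-7e, and the cause was not tested. Between the mimics DESeq2 called 2. For the difference of the let-7d effect between the series DESeq2 called 3, and limma-voom and the 1 CPM filter called 0; for that of let-7e DESeq2 called 12. For these too the cause was not tested.

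Leaving out 1 library gave 11 to 25 with let-7d, 3 to 16 with let-7e, 0 to 1 between the mimics, 15 to 28 and 1 to 6 for let-7d in series 1 and in series 2, 10 to 28 and 0 to 2 for let-7e, 0 to 10 for let-7d and 0 to 19 for let-7e in the difference between the series, and 31 to 35 for series 2 against series 1. The Ddit4 difference lay between 0.83 and 1.36, and was 1.06 under limma-voom and 1.10 under the 1 CPM filter, where its adjusted p was 0.064 and 0.0536. No named call changed sign.

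Whether equal replicate numbers mark paired samples is not in the labels, and the main fit used no pairing. Deviations of same-numbered libraries correlated between -0.065 and 0.188. With 2 libraries per group and series, these values cannot settle the question. With a replicate block 22 genes were called with let-7d and 8 with let-7e, where 29 of 30 named calls were kept, and Hk2 with let-7e was lost. Another scaling moved the median log2 fold change of all genes by at most 0.031. The depth of 15071299 counts and more put at least 36 counts behind each value of the 39 genes.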
